A study of Saccharomyces cerevisiae with 3 samples.

Results

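Pseudouridine, an isomer of uridine, is the most common modified nucleotide of rRNA and tRNA, and yeast makes it by 2 routes. In the RNA-guided route, a box H/ACA snoRNA pairs with the target RNA and brings the catalytic protein Cbf5, whose human homologue is dyskerin, together with Gar1, Nhp2 and Nop10. In the stand-alone route, a single Pus protein recognises its own sites, mainly in tRNAs, without a guide. The transcripts of 10 genes of these routes, of 5539 genes named on the array, are described here in budding yeast (Saccharomyces cerevisiae) of a wild-type strain under arsenite, which is trivalent arsenic. The genes were taken by name. The RNA-guided class holds the core proteins CBF5, GAR1 and NHP2 and the assembly factors NAF1 and SHQ1, and the stand-alone class holds PUS1, PUS3, PUS4, PUS6 and PUS7. Of these, 9 were found by symbol, and PUS3 was found through the platform's symbol for the same gene, DEG1. NOP10, the fourth core protein, had no named spot and was not analysed here.

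On each of 3 two-colour arrays, total RNA of wild-type cells treated with 0.2 mM As(III) for 1 h was hybridised together with total RNA of untreated wild-type cells. The labels name no strain background and no mating type, and nothing in them shows that each array had a culture of its own, so the p-values measure only the spread between these arrays, which may be technical. Treated RNA was labelled with Cy5 in replicates 1 and 2, and with Cy3 in replicate 3, where the dyes were exchanged. The dye orientations are thus not balanced, and a dye effect of a gene would not cancel in the mean over arrays. Every value below is a log2 ratio of arsenite-treated over untreated cells after the spots of a gene were averaged, replicate 3 was turned, and each array was centred on its median over the named genes. A value of 0 is therefore the middle gene of that array, and a value of -1 is a 2-fold lower transcript relative to that gene. In RNA from a whole culture, fewer cells with a transcript and less transcript per cell cannot be told apart.

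Over all 5539 genes, limma called 32.7% at an adjusted p of 0.05, with 14.5% higher and 18.1% lower. Replicate 3 as deposited correlated at -0.782 with replicate 1 and at -0.613 with replicate 2 over all spots, and the column was read as not yet turned. The sources do not state this, nor that the ratio is Cy5 over Cy3, so the direction of all values is likely rather than stated. The arsenite exporter gene ARR3 had 1.62, 1.75 and 2.10 on replicates 1, 2 and 3 in this direction, and ARR2, the arsenate reductase, had 3.72, 3.24 and 3.82. Before centring, the median over named genes was -0.10 on replicate 1, 0.52 on replicate 2 and -0.14 on replicate 3. The log base is not stated either and was read as 2.

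The transcripts of the 3 measured core proteins of the H/ACA particle fell, and most other members did not pass the test. CBF5, GAR1 and NHP2 were between 2.86-fold and 4.06-fold lower in arsenite-treated cells. Among the stand-alone enzymes, PUS1 fell 2.02-fold and PUS6 1.60-fold. Of the 10 members, 5 fell and 0 rose at an adjusted p of 0.05 in limma, beside 18.1% of all genes that fell. A fall of at least 2-fold past the test was reached by 4 members, beside 8.34% of all genes. The 5 others, NAF1, SHQ1, PUS3, PUS4 and PUS7, did not pass, although the mean of all 10 was below 0. The median of the 10 means was -0.55, and that of all genes was 0.01.

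**Figure D1:**
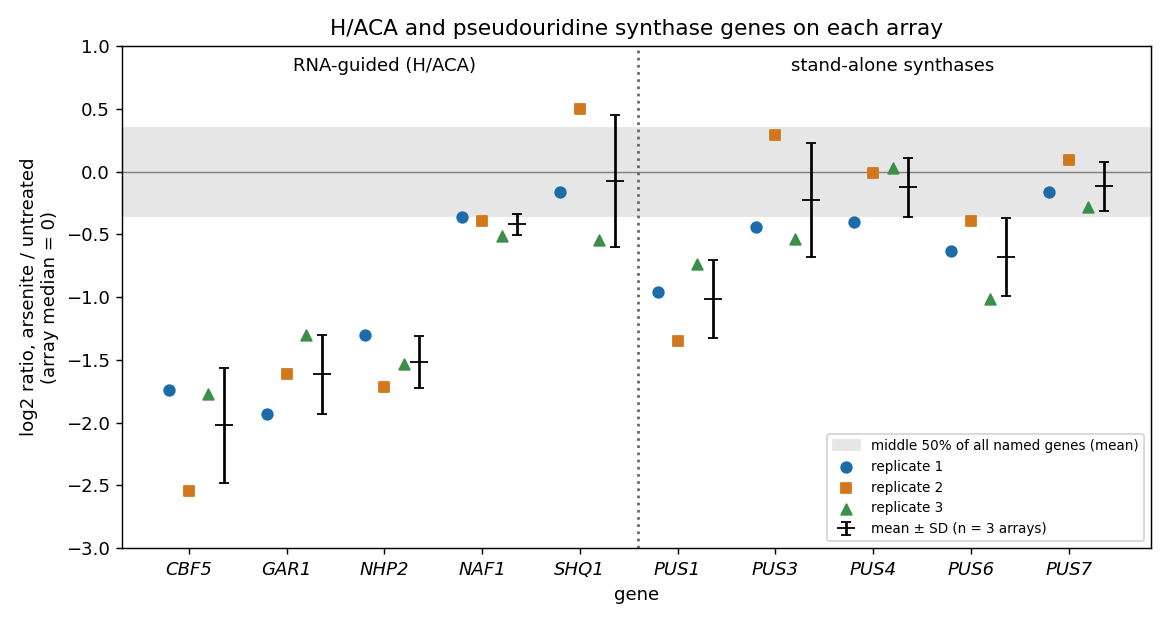
The vertical axis gives the log2 ratio of arsenite-treated over untreated cells with the array median at 0, and the horizontal axis the 10 genes, with 1 point for each of 3 arrays and the mean ± SD beside them. CBF5, GAR1 and NHP2 lie at or below -1.30 on every array, whereas SHQ1, PUS3, PUS4 and PUS7 have points on both sides of 0.

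CBF5 encodes the pseudouridine synthase that acts on rRNA in the guided route. Its log2 ratios were -1.74, -2.55 and -1.78 on replicates 1, 2 and 3. Replicate 2 was the lowest, and the other arrays differed by less than 0.05. The mean was -2.02 ± 0.46 (SD, n = 3, limma adjusted p = 8.72e-06), so that the transcript stood at 24.6% of the untreated level relative to the middle gene. Of all genes, 0.903% had a mean as low or lower, and CBF5 was the 50th lowest of 5539. Without centring its mean was -1.93 ± 0.09 (SD, n = 3).

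GAR1 encodes a small subunit with glycine- and arginine-rich stretches, which binds Cbf5 and is needed for pseudouridylation of rRNA. Its log2 ratios were -1.93, -1.61 and -1.30 on replicates 1, 2 and 3. All 3 lay well below 0, with a mean of -1.62 ± 0.31 (SD, n = 3, limma adjusted p = 3.11e-05), a 3.06-fold fall. NHP2 encodes an RNA-binding subunit, a relative of the ribosomal protein L7Ae of archaea. Its log2 ratios were -1.30, -1.71 and -1.54, with a mean of -1.52 ± 0.21 (SD, n = 3, limma adjusted p = 3.52e-05), a 2.86-fold fall. The 3 core genes took different orders on the arrays: GAR1 was lowest on replicate 1 and CBF5 on replicates 2 and 3. The means of CBF5 and GAR1 differed by 0.41 and those of GAR1 and NHP2 by 0.10, both less than the larger SD of each pair.

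The assembly factors differed from the core in size. NAF1 encodes the factor that holds the place of Gar1 in the immature particle and is exchanged for it later. Its log2 ratios of -0.36, -0.39 and -0.51 were close together, with an SD of 0.08. The mean of -0.42 did not pass after adjustment (limma adjusted p = 0.0863), and its 95% interval ran from -0.80 to -0.04. SHQ1 encodes the chaperone that binds free Cbf5 before it joins the RNA. Its log2 ratios were -0.17, 0.49 and -0.55, on both sides of 0, with a mean of -0.07 ± 0.53 (SD, n = 3, limma adjusted p = 0.824). The 95% interval of SHQ1, from -0.53 to 0.39, includes the mean of NAF1 and not that of any core gene. For this interval limma borrows variance from all genes, and the arrays may be technical replicates. A larger change of SHQ1 is therefore not excluded.

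PUS1 had the lowest mean of the stand-alone enzymes. It modifies many positions of cytoplasmic tRNAs and a position of the U2 snRNA. Its log2 ratios were -0.96, -1.35 and -0.74 on replicates 1, 2 and 3, with a mean of -1.02 ± 0.31 (SD, n = 3, limma adjusted p = 0.00108). PUS6, which modifies a position of cytoplasmic and mitochondrial tRNAs, had -0.63, -0.40 and -1.01 on the same arrays. Its mean was -0.68 ± 0.31 (SD, n = 3, limma adjusted p = 0.0147). The call of PUS6 was lost without centring (adjusted p = 0.143), without replicate 1 (0.118) and without replicate 3 (0.0746), whereas its mean stayed between -0.51 and -0.70 in these settings. The calls of CBF5, GAR1, NHP2 and PUS1 were kept in all 13 alternatives that gave a p. Among these, the natural-logarithm reading rescales all values alike and cannot change a p. The robust variance prior hardly moved the limma adjusted p of CBF5 (8.69e-06).

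The other stand-alone enzymes did not pass the test. PUS3 modifies the anticodon arm of tRNAs, and its log2 ratios were -0.45, 0.29 and -0.53, with replicate 2 alone above 0. Its mean was -0.23 ± 0.45 (SD, n = 3, limma adjusted p = 0.418). PUS4, which makes the pseudouridine found in the T arm of nearly all tRNAs, had -0.40, -0.01 and 0.03, with a mean of -0.13 ± 0.24 (SD, n = 3, limma adjusted p = 0.636). PUS7 modifies U2 snRNA, tRNAs and 5S rRNA, and had -0.16, 0.09 and -0.29, with a mean of -0.12 ± 0.19 (SD, n = 3, limma adjusted p = 0.657). The 95% intervals of PUS3, PUS4 and PUS7 reached down to -0.67, -0.53 and -0.51 and up to 0.21, 0.27 and 0.28. Changes within these limits are not excluded by the 3 arrays. A 2-fold change lay outside all 3 intervals, but limma borrows variance from all genes for them, so it is not excluded either. The mean of PUS3 was -0.49 without replicate 2 (limma adjusted p = 0.0537), -0.12 without replicate 1 and -0.08 without replicate 3.

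Ordered by the mean, the genes ran from CBF5 through GAR1, NHP2, PUS1, PUS6, NAF1, PUS3, PUS4 and PUS7 to SHQ1. The widest gap between neighbours in that order, 0.50 between NHP2 and PUS1, was the step from the core to the rest, and it exceeded the larger SD of that pair. NHP2 was below PUS1 on 3 of 3 arrays. The step of 0.34 from PUS1 to PUS6 was just above their SD, and PUS1 was the lower on 2 of 3 arrays. All other neighbours differed by less than the larger SD of the pair. Of these, PUS6 was nevertheless below NAF1 on 3 of 3 arrays, with a gap of 0.26.

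The RNA-guided class was compared with the stand-alone class array by array, as a description with no test, because the genes were chosen with results of these data known. The class medians were -1.30 and -0.45 on replicate 1, -1.61 and -0.01 on replicate 2, and -1.30 and -0.53 on replicate 3, RNA-guided first in each pair. The guided median was thus the lower on every array, by 0.86, 1.60 and 0.77. The median of the stand-alone means, -0.23 with all arrays, was -0.49 without replicate 2 and -0.12 without replicate 1. Past the test were 3 of 5 guided members and 2 of 5 stand-alone members, beside 18.1% of all genes that fell. The classes as a whole overlapped: a guided member was below a stand-alone member on all 3 arrays in 16 of 25 pairs. Set apart by their roles after the values were seen, the core genes were below the stand-alone enzymes on all 3 arrays in 15 of 15 pairs, whereas for NAF1 and SHQ1 together this held in 1 of 10 pairs. On replicate 2 the 10 genes were spread most widely, over a range of 3.04 from CBF5 to SHQ1, against 1.77 on replicate 1 and 1.80 on replicate 3. All 10 genes lay below the array median on replicate 1, 7 on replicate 2 and 9 on replicate 3. Of the 10, 6 were below it on all 3 arrays, as were 29.7% of all genes.

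Each gene was measured by 2 spots on each array, and the spots of CBF5, GAR1, NHP2, NAF1, PUS1, PUS3, PUS6 and PUS7 differed by at most 0.24. The spots of SHQ1 differed by 0.55, 0.32 and 0.55 on replicates 1, 2 and 3, and those of PUS4 by 0.02, 0.47 and 0.70. The SD of a single spot over all genes was 0.19, 0.22 and 0.20. For PUS4 the spots lay on opposite sides of 0 on replicates 2 and 3, and for SHQ1 on replicate 1. These 2 genes had the widest gaps between duplicate spots among the members. How far each spot stood above background is unknown, since the deposited table gives ratios alone.

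**Figure D2:**
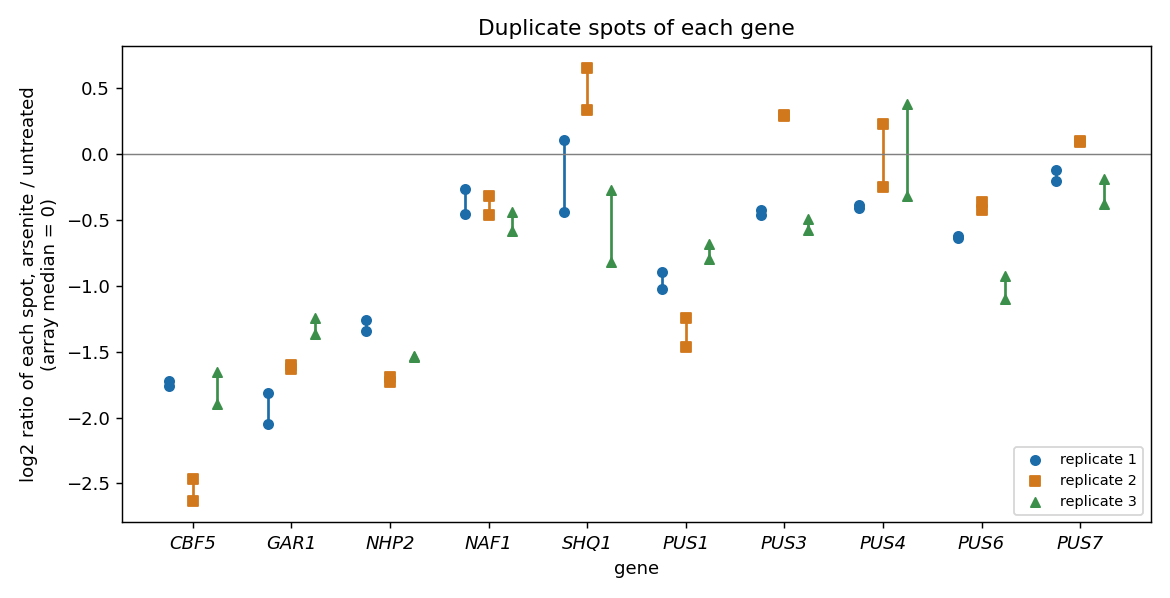
The vertical axis gives the log2 ratio of each of the 2 spots of a gene with the array median at 0, joined by a line, for 10 genes and 3 arrays. The spots of CBF5, GAR1 and NHP2 lie within 0.24 of each other, whereas those of PUS4 differ by up to 0.70 and those of SHQ1 by up to 0.55.

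The other pseudouridine synthases of yeast, which act largely in mitochondria, did not pass the test. Of 4 measured genes, 0 rose and 0 fell in limma at an adjusted p of 0.05, and 1 had an unadjusted p under it. That gene was PUS5, which modifies the large mitochondrial rRNA, with 0.68, 0.39 and 0.21 on replicates 1, 2 and 3 (mean 0.43, limma adjusted p = 0.0955). PUS2 and PUS9, both of which modify mitochondrial tRNAs, had means of 0.22 ± 0.32 and -0.25 ± 0.28 (SD, n = 3). RIB2, also named PUS8, acts on cytoplasmic tRNAs and in riboflavin synthesis, and had 0.04 ± 0.26 (SD, n = 3). Whether these genes differ from the members was not tested.

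The box C/D snoRNPs guide ribose methylation rather than pseudouridylation, and most of their core genes were lower too. Of 4 core genes, 3 fell and 0 rose, beside 18.1% and 14.5% of all genes, with a median of -1.51. NOP56 had -2.21, -1.91 and -2.07 (mean -2.06 ± 0.15, limma adjusted p = 2.88e-06). SNU13, which binds the kink-turn of the RNA and belongs to the same protein family as Nhp2, had -1.81, -1.93 and -1.14 (mean -1.62 ± 0.42, limma adjusted p = 4.39e-05). NOP58 had a mean of -1.40 ± 0.22 (SD, n = 3, limma adjusted p = 6.89e-05). The fourth, the methyltransferase NOP1, was singled out after its values were seen: its ratios were -0.10, -0.91 and -0.27, and it did not pass (limma adjusted p = 0.125), although it did after centring within runs of 200 spots (0.0194). CBF5 and NOP1, the catalytic subunits of the RNA-guided particles, thus had means of -2.02 and -0.43. Their difference was not tested.

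Of 7 genes of snoRNP assembly, which include the helicases RVB1 and RVB2 of the R2TP complex, 1 fell and 0 rose, with a median of -0.10. This share, 14.3%, is no higher than the 18.1% of all genes that fell. That gene was RSA1, a box C/D assembly factor, with -0.75, -0.15 and -0.96 (mean -0.62, limma adjusted p = 0.0313). The adjusted p of RSA1 was 0.261 when replicate 1 was left out, 0.124 when replicate 3 was, and 0.203 with no centring. Of 17 measured genes for the transcription end, processing and capping of snoRNAs, 7 fell and 0 rose, beside 18.1% and 14.5% of all genes, with a median of -0.26. PCF11, of the cleavage and termination machinery, fell most (mean -1.51 ± 0.15, limma adjusted p = 3.28e-05). LHP1, the yeast La protein, had a mean of -0.84 ± 0.41 (limma adjusted p = 0.00579), and RNT1, the RNase III that cuts snoRNA precursors, had -0.74 ± 0.25 (limma adjusted p = 0.00798). The calls of LHP1 and RNT1 were lost without replicate 1 (adjusted p = 0.186 and 0.169), and that of RNT1 also without centring (0.0992). The list had 2 genes that fell in each of these settings, where 602 and 603 of all 5539 genes fell in place of 1004.

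Among other enzymes that modify rRNA, 8 of 14 fell and 0 rose, beside 18.1% and 14.5% of all genes, with a median of -0.75. KRE33, the rRNA and tRNA acetyltransferase, had -1.64, -1.81 and -1.94 (mean -1.79 ± 0.15, limma adjusted p = 7.91e-06). NOP2 and RCM1, both of which make 5-methylcytosine in the large rRNA, had means of -1.17 ± 0.37 and -1.17 ± 0.12 (SD, n = 3). Without replicate 1, 5 genes of the list fell, beside 602 of all 5539 genes in place of 1004. Of 45 measured genes for other tRNA modifications, 18 fell and 3 rose, beside the same shares of all genes, with a median of -0.33. The number that fell was 10 without centring and also 10 without replicate 1, where 603 and 602 of all 5539 genes fell in place of 1004. NCL1, a tRNA cytosine methyltransferase (mean -1.46 ± 0.29), ELP3, the catalytic subunit of Elongator (-1.30 ± 0.05), and TRM1, a tRNA guanosine methyltransferase (-1.15 ± 0.24), fell most, each over 3 arrays. The 3 genes that rose were named after their values were seen: UBA4, of the thiolation pathway (0.89 ± 0.34), IKI1, an Elongator subunit (0.85 ± 0.29), and TRM12, of wybutosine synthesis (0.50 ± 0.14, limma adjusted p = 0.0493). TRM12 was not called without replicate 1 (0.362), without replicate 2 (0.0821), with a dye effect in the fit (0.0617) or without centring (0.141).

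**Figure D3:**
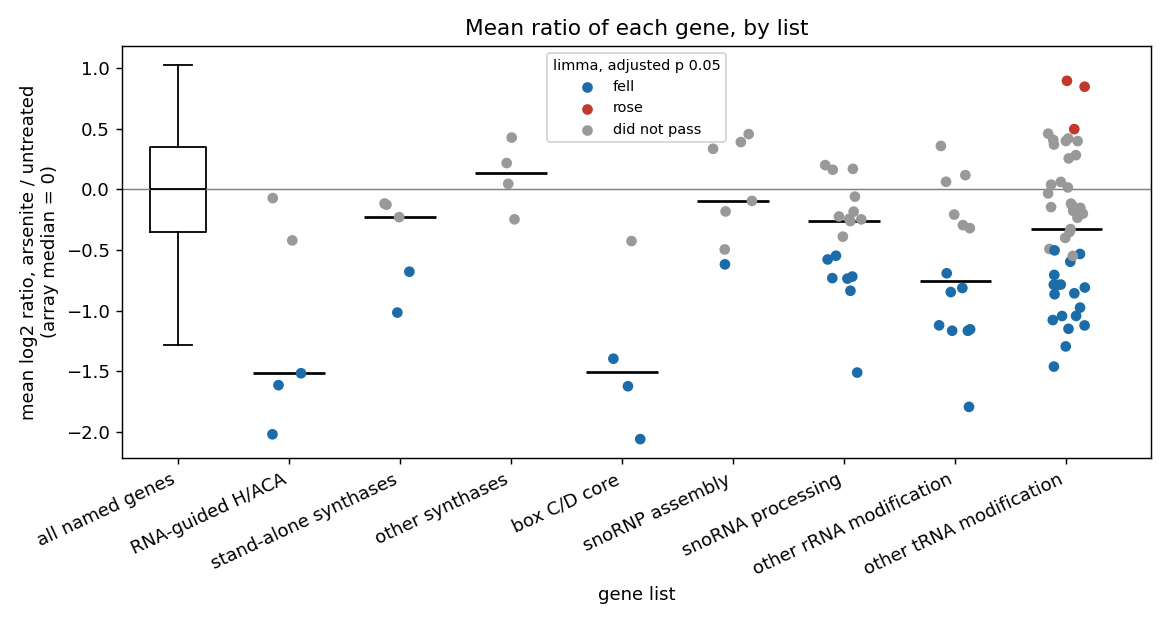
The vertical axis gives the mean log2 ratio over 3 arrays with the array median at 0, with 1 point per gene, coloured by whether it rose, fell or did not pass, and a bar at each list's median; the box at the left shows the quartiles of all 5539 genes with whiskers at the 5th and 95th percentiles. The medians of the RNA-guided class (-1.52) and the box C/D core (-1.51) are the lowest, and those of the stand-alone class (-0.23) and the tRNA list (-0.33) lie closer to 0.

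The genes whose ratios were most like those of CBF5 were sought over the 3 arrays by the root mean square difference of log2 ratios, which with so few arrays describes a similar size of change and little more. RPS15 was nearest, with -1.84, -2.50 and -1.90 on replicates 1, 2 and 3 and a difference of 0.10. It was followed by ELO3, a fatty acid elongase (0.13), and by the ribosomal protein genes RPL2A (0.13), RPL8B (0.13) and RPS25A (0.14). For PUS1 the nearest was UTP7, of the small-subunit processome, with -1.01, -1.39 and -0.78 and a difference of 0.04. Next came YPQ1, a vacuolar amino acid transporter (0.09), AGP1, an amino acid permease (0.09), ABD1, the methyltransferase of the mRNA cap (0.10), and RET1, a subunit of RNA polymerase III (0.10).

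The core genes kept their calls under every processing setting tried, and some smaller changes did not. Over the 13 alternatives that gave a mean, CBF5 ranged from -2.92 to -1.76, GAR1 from -2.33 to -1.46, NHP2 from -2.19 to -1.42 and PUS1 from -1.47 to -0.85, where the lowest values are those read as natural logarithms. NAF1 passed in 1 of the 13, centring within runs of 200 spots (limma adjusted p = 0.0399, range 0.0399 to 0.473 over the alternatives). SHQ1, PUS3, PUS4 and PUS7 passed in 0 of 13. The natural-logarithm reading, counted among the 13, could not change any call.

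**Figure D4:**
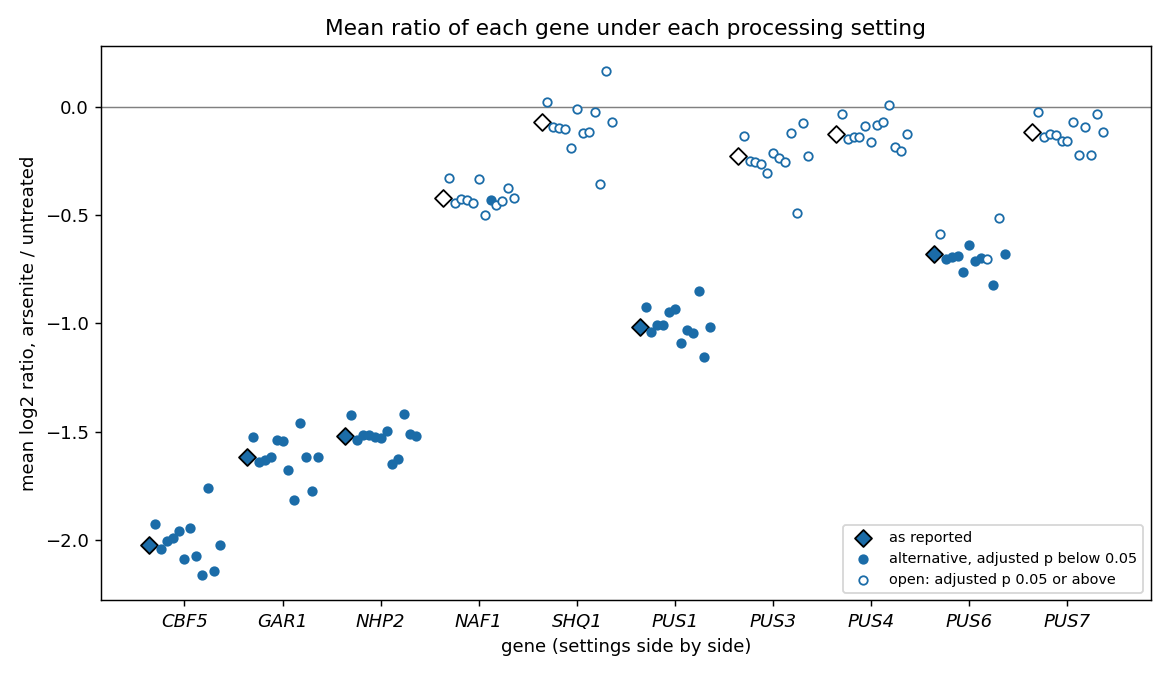
The vertical axis gives the mean log2 ratio of each gene as reported (diamond) and under 12 alternative settings (circles, side by side), filled where the limma adjusted p was below 0.05; the natural-logarithm reading is left out. CBF5, GAR1, NHP2 and PUS1 are filled throughout, PUS6 is open in 3 settings, and NAF1 is filled in 1.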

How the data were processed

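The deposited table holds 13056 spots on 3 arrays with 0 missing values; the values were read as log2 ratios made by the authors. The scanner, background correction, normalization and log base were not given in the sources used here. Spots were named by the platform annotation supplied with the series (11138 with 1 symbol, 1918 with none), and older names and the order and strand of neighbouring genes were taken from RefSeq assembly R64, whose coordinates are not printed because the files name no build. No sequences were used, so the promoter and protein descriptions that had been planned were not made. Spots were averaged per gene, replicate 3 was multiplied by -1, and each array was centred on its median over 5539 genes. The mean over arrays was tested against 0, two-sided, with lmFit and eBayes of limma 3.58.1 (R 4.3.3), with Benjamini-Hochberg adjustment over all genes (prior degrees of freedom 10.8, residual 2). The fit was tested on simulated data. Tables and figures used Python 3.11.15, pandas 2.3.3 and matplotlib 3.10.9. No test was run on gene lists. The number of arrays limits the precision. Members and lists were chosen with earlier results of these data known. All members and other synthases were named, and from each other list up to 3 genes past the test with the largest change and 1 sign on 3 arrays, plus the 5 genes most like CBF5 and PUS1 and the genome neighbours. The alternatives changed the centring, scaling, normalization, spots, variance prior, dye term, log base and threshold, or left out an array.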

Additional observations from a re-analysis of the deposited data

How the results depend on the processing

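The counts of members that fell and rose stayed within 1.5 times those reported in every alternative. With a dye effect in the fit, 5 members fell and 0 rose, as reported. Without replicate 3, only a single dye orientation is left. Without centring, 603 of all genes fell in place of 1004, and 1 stand-alone member fell in place of 2. That count was also 1 at an adjusted p of 0.01, where 688 of all genes fell in place of 1004 and 490 rose in place of 805. With an array left out, all genes that rose ranged from 412 to 939, those that fell from 602 to 1071, and stand-alone members that fell from 1 to 2. Read as natural logarithms, the RNA-guided median was -2.19 in place of -1.52. Its difference from the stand-alone median was -1.86 in place of -1.29, and this reading makes both changes by construction. The -1.29 was taken between medians of the means over arrays, whereas the differences on the single arrays had a mean of -1.08. With an array left out, it was -1.34 without replicate 1, -0.93 without replicate 2 and -1.30 without replicate 3. SHQ1 changed sign without centring (0.020) and, with an array left out, ranged from -0.36 to 0.16. PUS4 ranged from -0.21 to 0.0086 with an array left out, above 0 without replicate 1. Neither was called in any alternative that gave a p. The causes were not tested. Treated and untreated RNA were paired within each array, since every ratio compares the RNAs of that array and its mean was tested against 0. No further pairing was possible because all 3 arrays form 1 group. Intensities are not in the table, so weak spots could not be set aside.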

Other observations

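Of the 20 genes beside the members in RefSeq assembly R64, 18 were measured; 4 of them fell, 1 rose and 13 did not pass, beside 18.1% and 14.5% of all genes. NIP7, a factor of large-subunit assembly, lies on the other strand upstream of PUS1, so that the genes are transcribed away from each other. NIP7 had -1.37, -1.38 and -1.04 on replicates 1, 2 and 3 (mean -1.26 ± 0.19, limma adjusted p = 0.000143), beside -0.96, -1.35 and -0.74 for PUS1. SPB4, a helicase of large-subunit assembly, lies in the same way beside PUS3 and had -1.21, -0.64 and -1.53 (mean -1.13 ± 0.45, limma adjusted p = 0.000877), whereas PUS3 had a mean of -0.23. LOC1, on the other side of PUS3, had a mean of -0.92 ± 0.10 (limma adjusted p = 0.00142). PUS3 thus lay between genes of ribosome assembly that both fell, but 4 of 18 neighbours is near the share of all genes that fell. Of 6 divergent neighbours in all, 2 fell and 4 did not pass: CWC2 beside NHP2 had a mean of -0.37, ESBP6 beside NAF1 -0.31, DPH1 beside SHQ1 -0.09 and ESA1 beside PUS7 0.01.

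The genes next to the core members had smaller changes than those members. CBF5 lies between IDP2, isocitrate dehydrogenase, with a mean of -0.06 ± 0.48, and RFX1, a transcriptional repressor of DNA damage genes, with 0.31 ± 0.23 (SD, n = 3). GAR1 has RPF1, of large-subunit assembly, at its end (mean -0.69 ± 0.43, limma adjusted p = 0.0186), but the adjusted p of RPF1 was 0.251 when replicate 1 was left out and 0.133 with no centring. MSB3, beside PUS4, was the neighbour that rose (mean 0.70 ± 0.21, limma adjusted p = 0.00952), though not without replicate 1 (0.0604).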
